A study of Mus musculus with 14 samples.

Results

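The Spi1 locus was examined in 14 lists of transcription factor (TF) peaks, each made by chromatin immunoprecipitation and sequencing (ChIP-seq) with 1 antibody at 1 stage of blood cell differentiation. The locus was taken as the RefSeq GRCm38 span of the gene, chr2:91082374-91115759 on the plus strand, extended by 30 kb on each side to chr2:91052374-91145759. Every peak overlapping this window by at least 1 bp was kept, which gave 37 of the 158488 peaks of the series. Each peak is described by the distance of its centre from the transcription start site (TSS) of Spi1, with negative distances upstream.

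Spi1 encodes PU.1, an ETS family TF that is required for the formation of macrophages and B cells and whose level influences the choice between blood lineages. Its gene is a well studied case of a TF gene that is itself bound by blood TFs, both at the promoter and at an upstream regulatory element that is needed for normal PU.1 levels in myeloid cells. PU.1 itself, C/EBP family members and RUNX1 are among the factors known to act there.

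The cells came from mouse embryonic stem (ES) cells of strain 129 that carry a green fluorescent protein reporter in the Brachyury gene (Bry.GFP), and were differentiated in culture. Mesoderm (MES) was sorted as Bry.GFP+ FLK1- cells, the hemangioblast (HB) as Bry.GFP+ FLK1+ cells, hemogenic endothelium (HE) as Tie2+ cKit+ CD41- cells, hematopoietic progenitors (HP) as CD41+ cells and macrophages (MAC) as CD11b+ cells. The lists were C/EBPβ at all 5 stages, ELK4 in MES, GATA2 in HB, PU.1, RUNX1, GFI1B, GATA1 and GATA2 in HP, and PU.1 and RUNX1 in MAC. Each combination of factor and stage was 1 list with no replicate, so no spread between replicates exists for any value below and no p-value is given. For the HE library, carrier histone 2B and carrier mouse mRNA were added because cells were few. Peaks carry no height, and the threshold of each list was set separately, so that a peak records presence in a list and a missing peak does not show that the factor was absent. Before sequencing, the study tested some ChIP material by PCR at a site it names Pu.1-14, for C/EBPβ and RUNX1 in HP, for C/EBPβ in MAC and for FLI1 and LMO2 in HE, and enrichment at such sites was used to choose material for sequencing. Peaks of the C/EBPβ and RUNX1 lists in that part of the locus are therefore not independent of that choice. Lists of further factors that the study profiled, among them TAL1, LMO2, FLI1 and MEIS1 at early stages and TAL1, LMO2, FLI1 and GFI1 in HP, were not analysed here, so every statement on a stage below covers the 14 lists alone.

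RefSeq gives 4 transcripts of Spi1 with starts in 2 places. NM_011355.2 starts at chr2:91096678, and this start serves as the TSS. NM_001378898.1 starts 22 bp further on, whereas NM_001378899.1 and XM_011239397.2 start at −14273 and −14304 bp, so that the upstream flank between these starts and the TSS is an intron of the longer transcripts. GENCODE M21 places the start of 1 of its coding transcripts at −582 bp. Distances would move by these amounts with another start.

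The sequences of 4 stretches are printed because the results return to them. All are the plus strand of the RefSeq GRCm38 reference, a C57BL/6J genome, so strain 129 bases may differ. Capitals mark exact matches, on either strand, to 3 kinds of short consensus word: the PU.1 word GAGGAAGT or its shorter form GAGGAA, the C/EBP words TTGCGCAA, TTGCGTAA, TTGCACAA and TTGCATAA or the looser form TTGCNNAA, and the RUNX word TGTGGT. The AP-1 word TGANTCA, the word AGATAA of the GATA factors, the ELK4 word CCGGAAGT and the GFI1B word AATCACNGC were searched as well on both strands and had no match in these stretches. The upstream cluster, chr2:91082923-91083222 from −13.76 to −13.46 kb, is shown because peaks of 5 lists lie there.
Upstream cluster: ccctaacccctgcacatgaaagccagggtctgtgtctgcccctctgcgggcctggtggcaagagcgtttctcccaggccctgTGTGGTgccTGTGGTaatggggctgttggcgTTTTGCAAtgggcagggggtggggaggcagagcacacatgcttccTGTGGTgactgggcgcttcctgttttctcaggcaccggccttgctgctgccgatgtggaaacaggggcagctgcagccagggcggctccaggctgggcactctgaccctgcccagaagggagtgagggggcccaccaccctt
The next stretch, chr2:91082141-91082373 from −14.54 to −14.30 kb, is the portion of a macrophage PU.1 peak that precedes the upstream first exon.
MAC PU.1 before the upstream exon: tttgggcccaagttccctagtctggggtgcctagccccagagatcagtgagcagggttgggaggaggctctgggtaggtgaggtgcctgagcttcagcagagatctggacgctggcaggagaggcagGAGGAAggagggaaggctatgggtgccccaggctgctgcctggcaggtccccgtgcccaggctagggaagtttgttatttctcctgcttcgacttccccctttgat
The stretch chr2:91084587-91084886, from −12.09 to −11.79 kb, is an element with PU.1 at both stages and no other list.
HP and MAC PU.1: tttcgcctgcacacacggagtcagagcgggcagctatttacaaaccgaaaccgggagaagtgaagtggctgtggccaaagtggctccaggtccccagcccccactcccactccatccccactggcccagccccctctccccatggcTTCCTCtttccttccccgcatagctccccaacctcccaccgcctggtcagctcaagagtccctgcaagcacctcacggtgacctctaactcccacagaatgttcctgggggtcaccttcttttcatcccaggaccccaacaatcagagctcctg
The last, chr2:91098257-91098556 from 1.58 to 1.88 kb, lies in intron 1 and holds a C/EBP word beside a RUNX word.
Intron C/EBPβ: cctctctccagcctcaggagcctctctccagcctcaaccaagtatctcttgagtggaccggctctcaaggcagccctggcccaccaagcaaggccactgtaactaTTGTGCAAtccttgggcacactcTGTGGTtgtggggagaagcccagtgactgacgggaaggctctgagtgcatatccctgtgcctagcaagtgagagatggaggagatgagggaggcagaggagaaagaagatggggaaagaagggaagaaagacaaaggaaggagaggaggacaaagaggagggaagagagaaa

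Peaks within 30 kb of Spi1 were found in lists of HP and MAC, and in none of the 5 lists of MES, HB and HE, which cover C/EBPβ, ELK4 and GATA2. With a flank of 100 kb, peaks of C/EBPβ in MES and HB and of ELK4 in MES were included as well. Macrophages had 28 of the 37 peaks, with 18 in the PU.1 list and 10 in the C/EBPβ list. Over the whole series these 2 lists held 82866 and 55471 of the 158488 peaks, so most peaks anywhere were from macrophages. Progenitors had 9 peaks, namely 4 of PU.1, 2 of C/EBPβ, 2 of RUNX1 and 1 of GFI1B. The remaining 8 lists had none: C/EBPβ and ELK4 in MES, C/EBPβ and GATA2 in HB, C/EBPβ in HE, GATA1 and GATA2 in HP, and RUNX1 in MAC.

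These counts have to be read against how often any gene has a peak of the same list. Of 21774 coding genes, each taken with its span plus 30 kb, 81.3% had a MAC PU.1 peak, 77.3% a MAC C/EBPβ peak and 44.1% an HP PU.1 peak. The share was 17.9% for HP C/EBPβ, 14.4% for HP GFI1B and 9.43% for HP RUNX1. A macrophage peak of either factor near Spi1 is thus what most coding genes show, whereas a progenitor RUNX1, GFI1B or C/EBPβ peak is what fewer genes show. For the lists with no peak at Spi1 the share was 7.83% for MES C/EBPβ, 5.75% for MES ELK4, 5.14% for HB C/EBPβ, 0.423% for HB GATA2 and 0.85% for HE C/EBPβ. It was 2.23% for HP GATA1, 4.19% for HP GATA2 and 0.602% for MAC RUNX1. Having no peak of these lists is therefore what most coding genes show.

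The number of peaks at Spi1 was set beside that at all coding genes, list by list. At least 18 MAC PU.1 peaks were found at 4.12% of coding genes, with a median of 5 peaks per gene. At least 10 MAC C/EBPβ peaks were found at 7.19%, with a median of 3. At least 4 HP PU.1 peaks were found at 3.77%, at least 2 HP C/EBPβ peaks at 2.99% and at least 2 HP RUNX1 peaks at 0.992% of coding genes. At least 1 HP GFI1B peak was found at 14.4%. Peaks of at least 6 lists were found at 6.46% of coding genes, and all of the 6 lists seen at Spi1 at 1.06%, or 230 genes.

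**Figure D1:**
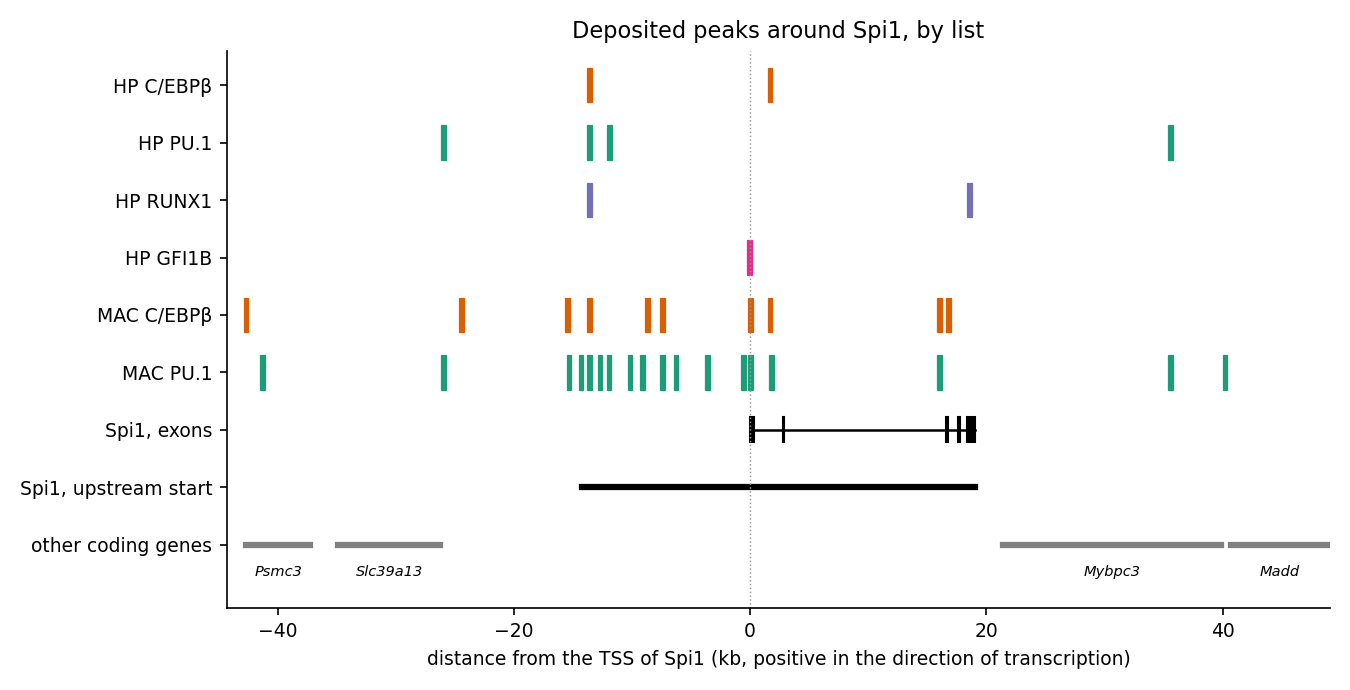
Each bar is 1 deposited peak of 400 bp at its distance from the TSS of Spi1 (kb, horizontal axis), with 1 line for each of the 6 lists that had a peak in the window, and below them the exons of NM_011355.2 (black boxes), the extent of the upstream-starting NM_001378899.1 and the neighbouring coding genes (grey). Most MAC PU.1 bars stand between −16 kb and the TSS, and the bars of 5 lists line up at −13.61 kb.

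Overlapping peaks were merged into 23 elements, of which 14 came from 1 list and 9 from at least 2. MAC PU.1 was present in 18 elements, alone in 9 of them, and MAC C/EBPβ in 10, alone in 4. Both factors shared 6 elements. Progenitor lists touched 7 elements, and a macrophage peak was present at 6 of these. The remaining 16 elements had macrophage peaks alone. The MAC PU.1 and MAC C/EBPβ lists held 82866 and 55471 peaks, against 10943 in HP PU.1, the longest HP list. The share of macrophage-only regions over the series was not counted, so such elements are not read as particular to this locus. The overlap of progenitor with macrophage peaks is frequent in the series as a whole, where 97.0% of HP PU.1 peaks overlapped MAC PU.1, 91.4% of HP C/EBPβ peaks overlapped MAC C/EBPβ, and 62.8% of HP RUNX1 and 39% of HP GFI1B peaks overlapped MAC PU.1.

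The element with the most lists was the upstream cluster, chr2:91082853-91083292, centred at −13.61 kb in the intron that follows the upstream first exon. It held HP C/EBPβ, HP PU.1, HP RUNX1, MAC C/EBPβ and MAC PU.1 peaks, which makes it the only element of the locus with more than 3 lists. The peak centres lay at −13593 bp for HP C/EBPβ, −13596 bp for HP PU.1 and −13619 bp for HP RUNX1. In macrophages they lay at −13626 bp for C/EBPβ and −13586 bp for PU.1. All 5 centres fell within 40 bp, and 360 bp were common to all 5 peaks. The closest pair was HP PU.1 and HP C/EBPβ, 3 bp apart, and the most distant was the macrophage pair of the same factors, 40 bp apart. The RUNX1 centre was 23 bp from that of PU.1 in the same cells.

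Regions of this make-up were rare in the series. The cluster had been singled out as the element of the locus with the most lists, so its rarity by that number follows in part from the choice. Merging all lists gave 117293 regions, of which 348 (0.297%) had peaks of at least 5 lists. The 5 lists of the upstream cluster occurred together in 25 regions (0.0213%), 7 of which held no other list. In 24 of these 25 regions no list had more than 1 peak. The median spread of the centres there, over all lists in the region, was 188 bp. A spread of 40 bp or less was found in 8.33% of them, the upstream cluster included. Further lists add centres, which can only widen a spread. How tight the cluster is among regions of its 5 lists alone was therefore not shown. With 1 list per group the error of a centre is also not known.

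The sequence of the cluster held 3 RUNX words, at −13671, −13662 and −13595 bp, and all 3 lay inside each of the 5 peaks. The last was 24 bp from the HP RUNX1 centre and 1 bp from the HP PU.1 centre. A single RUNX word is common, being found in 26.1% of 445792 windows of 400 bp along chromosome 2, but 3 or more were found in 0.55% of them. Among HP RUNX1 peaks, 6.14% had at least 3 (exact Clopper-Pearson 95% interval 4.72 to 7.83%, which covers counting error only), and among HP PU.1 peaks 0.987%. The count of 3 was looked up after the sequence had been seen. It was not particular to the cluster, since the element of MAC PU.1 alone at 40.20 kb also held 3 RUNX words, and 11 of the 23 elements held at least 1. The cluster held neither the PU.1 word nor its short form, despite PU.1 peaks at both stages, and no strict C/EBP word, despite C/EBPβ peaks at both stages. It had 1 looser C/EBP match, 13 bp before the MAC C/EBPβ centre and 46 bp before the HP C/EBPβ centre. It also had 3 copies of the ETS core GGAA, which 98.2% of windows on chromosome 2 contain. A match is a description of letters and does not show a bound site.

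The upstream cluster was not the element nearest to the round distance of 14 kb. That was a peak of MAC PU.1 alone, chr2:91082141-91082540, centred at −14.34 kb and overlapping the first exon of the upstream-starting transcripts. It lay 338 bp from the −14 kb point, while the upstream cluster lay 394 bp from it. By the nearest-element rule the upstream element had 1 list, and by the number of lists it had 5. Which of these the study's PCR site covers was not tested. A MAC C/EBPβ and a MAC PU.1 peak met further upstream at −15.40 kb with centres 122 bp apart, the widest offset among the shared elements of the locus.

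Progenitor PU.1 had a second peak in the upstream flank, at −11.94 kb. It was matched by a MAC PU.1 peak whose centre was 12 bp away, and no other list was present. The short PU.1 word lay between the centres, 7 bp before the progenitor and 5 bp after the macrophage centre. The other 2 HP PU.1 peaks lay further out, at −25.97 kb beside the start of Slc39a13, which encodes a zinc transporter, and at 35.59 kb inside Mybpc3, which encodes cardiac myosin binding protein C. All 4 HP PU.1 peaks were thus present in macrophages, with centres 5 to 16 bp apart, whereas 4 of the 18 MAC PU.1 peaks (22.2%) were present in progenitors. Over the whole lists these shares were 97.0% and 12.8%, and the median offset was 13 bp, so that the first share is close to that of any HP PU.1 peak.

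**Figure D2:**
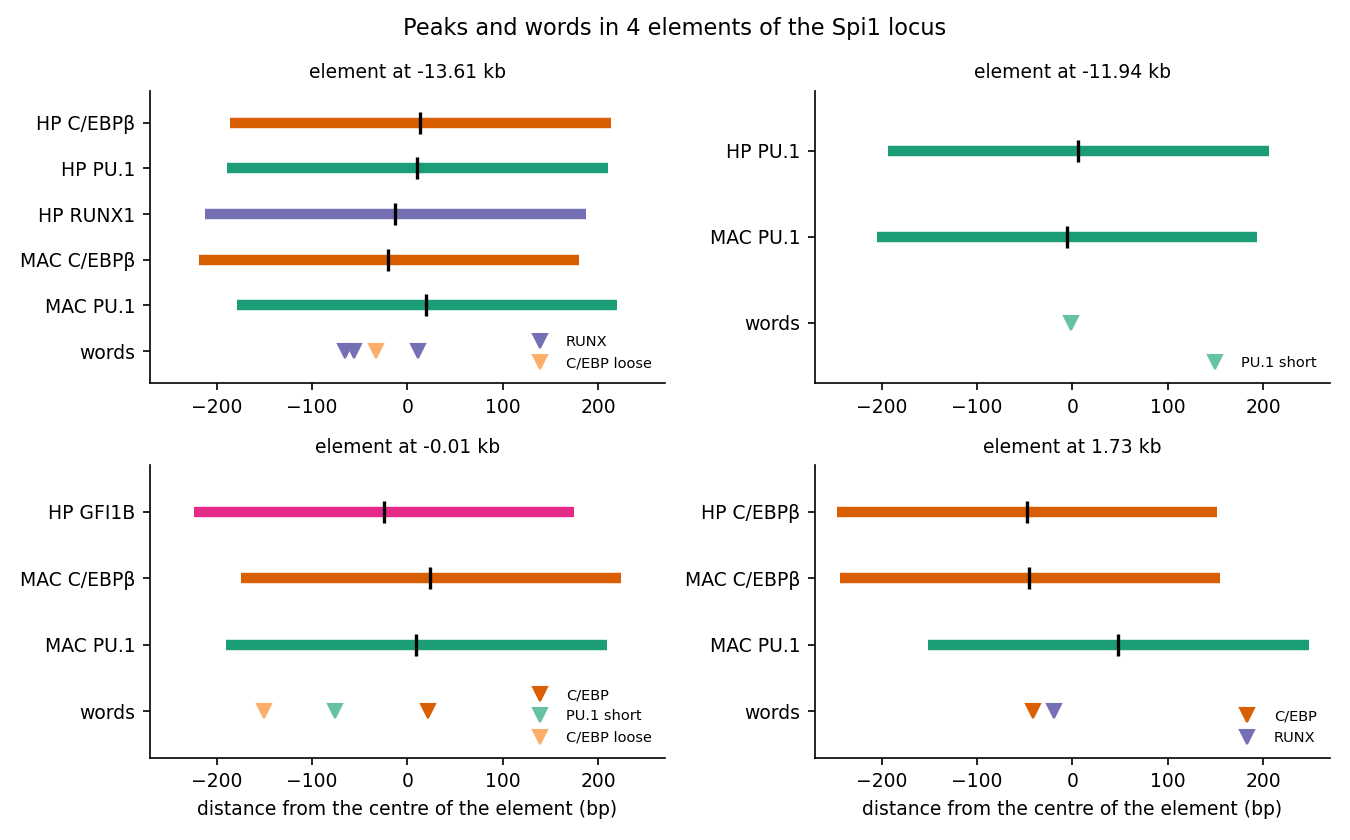
Bars are the peaks of each list and black ticks their centres, at the distance from the centre of the element (bp, horizontal axis), in the elements at −13.61, −11.94, −0.01 and 1.73 kb, with triangles at the centres of the words that matched. The 5 centres of the upstream cluster lie within 40 bp. The nearest RUNX word lies among them, and the other RUNX words lie upstream of all 5. The C/EBP word lies near the C/EBPβ centres in the elements at −0.01 and 1.73 kb.

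Macrophage PU.1 peaks were spread along the upstream flank. The MAC PU.1 list held 82866 peaks and the HP PU.1 list 10943, so fewer HP peaks are found at most places. Within 16 kb upstream of the TSS there were 12 MAC PU.1 centres, against 2 HP PU.1 centres. Starting from the distal end, they lay at −15.34, −14.34, −13.59, −12.73, −11.95, −10.17, −9.14, −7.43, −6.28, −3.62 and −0.57 kb and, the last, 3 bp from the TSS. The distance between neighbours ranged from 571 to 3048 bp with a median of 1021 bp. The widest gap lay between −3.62 and −0.57 kb, and the gap beside it, between −6.28 and −3.62 kb, was also wide.

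No other coding gene had as many MAC PU.1 centres in that stretch. The median over 21774 coding genes was 1, and the next genes were Fscn2 and Pheta1 with 10. The stretch of 16 kb was chosen after the peaks had been seen and ends just beyond the most distal of them. With 20 kb Spi1 and 1 more gene had 12, with 12 kb Spi1 had 8 and was among 6 genes with at least as many, and with 10 kb it had 6 and was among 45. With 5 kb it had 3 peaks and was among 552 genes, and with 30 kb it had 13 and was among 15. Measured from the GENCODE start at −582 bp, 10 peaks remained and Spi1 was among 3 genes with at least as many. From the upstream start Spi1 had 3 centres in 16 kb, and was among 3627 genes with at least as many. The rank of Spi1 by this count thus depended on the reach and on the start chosen. For HP PU.1, 413 genes (1.9%), Spi1 included, had 2 or more centres in the same 16 kb.

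**Figure D3:**
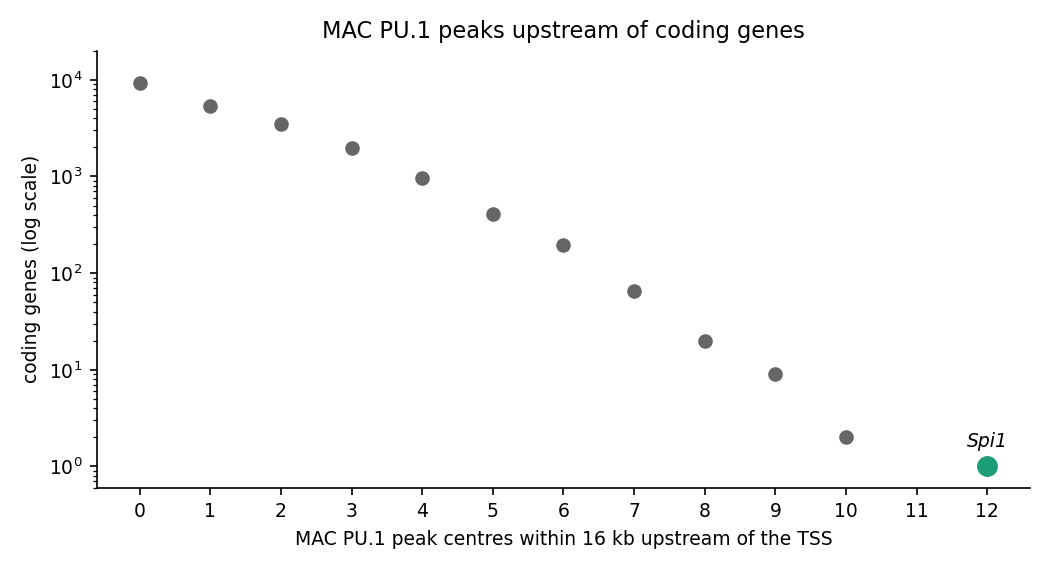
Points give the number of coding genes (vertical axis, log scale) with each number of MAC PU.1 peak centres within 16 kb upstream of the TSS (horizontal axis). Spi1 (green) has 12, and no other gene has more than 10.

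Macrophage C/EBPβ joined PU.1 at part of these places. In the upstream flank it shared the elements at −15.40, −13.61 and −7.43 kb, and it stood alone at −8.68 kb. At −7.43 kb the centres of both factors were 7 bp apart. In the whole window 6 of 18 MAC PU.1 peaks (33.3%) overlapped MAC C/EBPβ, compared with 28.5% of the list. Conversely 6 of 10 MAC C/EBPβ peaks (60%) overlapped MAC PU.1, compared with 42.5% of the list. These window shares rest on 18 and 10 peaks, and their difference from the lists was not tested.

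The promoter held peaks of 3 lists, and of the 6 HP lists used here only GFI1B had a peak there. GFI1B is a zinc finger repressor known from erythroid and megakaryocytic cells and from the emergence of blood cells from endothelium. The element, chr2:91096442-91096890, had its HP GFI1B centre at −37 bp, its MAC PU.1 centre at −3 bp and its MAC C/EBPβ centre at 12 bp, all within 49 bp. No HP PU.1, HP RUNX1 or HP C/EBPβ peak was found within 500 bp of the TSS. A C/EBP word lay 2 bp from the MAC C/EBPβ centre, and no GFI1B word was found in the peak, and such a word was found in 10.2% of the HP GFI1B list. A further MAC PU.1 peak at −574 bp, 8 bp from the GENCODE start, held a PU.1 word 12 bp before its centre.

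Downstream of the TSS, within the span of NM_011355.2, the peaks stood towards its ends. The element in intron 1, chr2:91098159-91098654 at 1.73 kb, held HP C/EBPβ and MAC C/EBPβ with centres 3 bp apart at 1680 and 1683 bp, and MAC PU.1 at 1776 bp, 93 bp from its macrophage partner. Its C/EBP word lay 7 bp from the progenitor and 4 bp from the macrophage C/EBPβ centre, with a RUNX word 22 bp further on. Both HP C/EBPβ peaks of the locus, here and at the upstream cluster, were therefore present in macrophages, with offsets of 3 and 33 bp. Over the list 91.4% of HP C/EBPβ peaks were. Beyond this element 13863 bp without a peak followed, from 1.98 to 15.84 kb.

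The 3′ end of the gene had macrophage peaks of both factors at 16.04 kb, 9 bp apart in intron 2, and of C/EBPβ alone at 16.81 kb just past exon 3. The other HP RUNX1 peak, chr2:91115027-91115426 at 18.55 kb, had its centre in the coding part of exon 5 and was the only progenitor peak of the locus without a macrophage peak. It held no RUNX word, in contrast to the HP RUNX1 peak of the upstream cluster. In the HP RUNX1 list 47.1% of peaks held one. No MAC RUNX1 peak was present at either place, and that list had 72 peaks in all, so that the absence is what nearly every gene shows.

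Beyond the gene, the window reached into its neighbours, and 25 of the 37 peaks had a start of Spi1 as their nearest coding TSS when every annotated start was used. With 1 TSS per gene, at chr2:91096678 for Spi1, 17 peaks did. The 8 that changed, from −15.47 to −13.59 kb and with all 5 of the upstream cluster among them, were then nearer to Slc39a13, and no RUNX1 peak was then nearest to Spi1. The peaks nearest to other genes by both counts included a MAC C/EBPβ peak at −42.70 kb, 36 bp from the start of the proteasome subunit gene Psmc3, and MAC PU.1 at −41.29 kb inside it. MAC C/EBPβ at −24.44 kb held a C/EBP word 22 bp from its centre. MAC PU.1 at 40.20 kb, between Mybpc3 and Madd, held a PU.1 word 1 bp from its centre. Whether these peaks act on Spi1 was not tested.

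A minority of the PU.1 and C/EBPβ peaks at Spi1 held the exact word of their factor. The PU.1 word was found in 3 of 18 MAC PU.1 peaks, compared with 24.4% of the list, and in 0 of 4 HP PU.1 peaks, compared with 42.1% of the list. It occurred in 2.4% of windows on chromosome 2. With the short form GAGGAA the counts were 9 of 18 and 2 of 4, beside 65.3% and 76.1% of the lists and 32.7% of windows. The strict C/EBP words were found in 3 of 10 MAC C/EBPβ and 1 of 2 HP C/EBPβ peaks, beside 14.9% and 38.3% of the lists and 2.72% of windows. The looser C/EBP form was found in 5 of 10 and 2 of 2 of these peaks, beside 41.9% and 64% of the lists and 17.8% of windows. The AP-1 word was in 3 elements, among them those at −25.97 and 35.59 kb with PU.1 at both stages, and in 11.7% of windows, while the GATA word was in 2 elements and 24.4% of windows. The ELK4 word (0.265% of windows) and the GFI1B word (0.94%) were in none. In the 3 elements with a PU.1 word, the word lay 12 bp or less from the MAC PU.1 centre.

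The lists without a peak in the window came nearest at very different distances. MES C/EBPβ and HB C/EBPβ had their nearest peaks at 98.49 and 98.52 kb and MES ELK4 at 106.18 kb, all within 32 bp of a start of Nr1h3, which encodes the oxysterol receptor LXRα. The nearest HP GATA2 and HP GATA1 peaks were at 851.68 and 910.50 kb. For HB GATA2, HE C/EBPβ and MAC RUNX1 the nearest peak on the chromosome was more than 10 Mb away, and these lists held 97, 132 and 72 peaks. In these short lists the distance says little about Spi1.

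The pattern at Spi1 was compared with 23 other regulators of the myeloid and progenitor network. All 23 had a MAC PU.1 peak (81.3% of coding genes), 14 an HP PU.1 peak (44.1%), 9 an HP GFI1B peak (14.4%) and 5 an HP RUNX1 peak (9.43%). An HP GATA1 or GATA2 peak was found at 4, compared with 5.44% of coding genes, and a peak of a MES, HB or HE list at 7, compared with 14.8%. The median was 3 lists, as for all coding genes, against 6 at Spi1. The 5 with more lists than Spi1 were Runx1 and Tal1 with 11, and Cebpe, Fos and Gfi1b with 8. Each of these 5 had HP RUNX1 peaks, and each had GATA peaks in HP or an earlier-stage peak, which Spi1 lacked. A gene with more lists than Spi1 must hold a list that Spi1 lacks, so the latter contrast follows largely from how the 5 were picked. More MAC PU.1 peaks than at Spi1 were found at Runx1 (49), Fli1 (30) and Irf8 (19), with Irf8 encoding a partner of PU.1 in macrophages. The windows of these genes differ in length, and per kb of window Spi1 had 0.193 MAC PU.1 peaks, compared with 0.172 at Runx1, 0.166 at Fli1 and 0.237 at Irf8. Cebpb (0.26), Fos (0.221), Tal1 (0.212) and Cebpe (0.21) were also above Spi1 by that measure. The paralogs Spib and Spic, which encode the other members of the PU.1 subfamily of ETS factors, had peaks of MAC PU.1 (8 and 2) and MAC C/EBPβ (3 and 1) and of no other list.

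**Figure D4:**
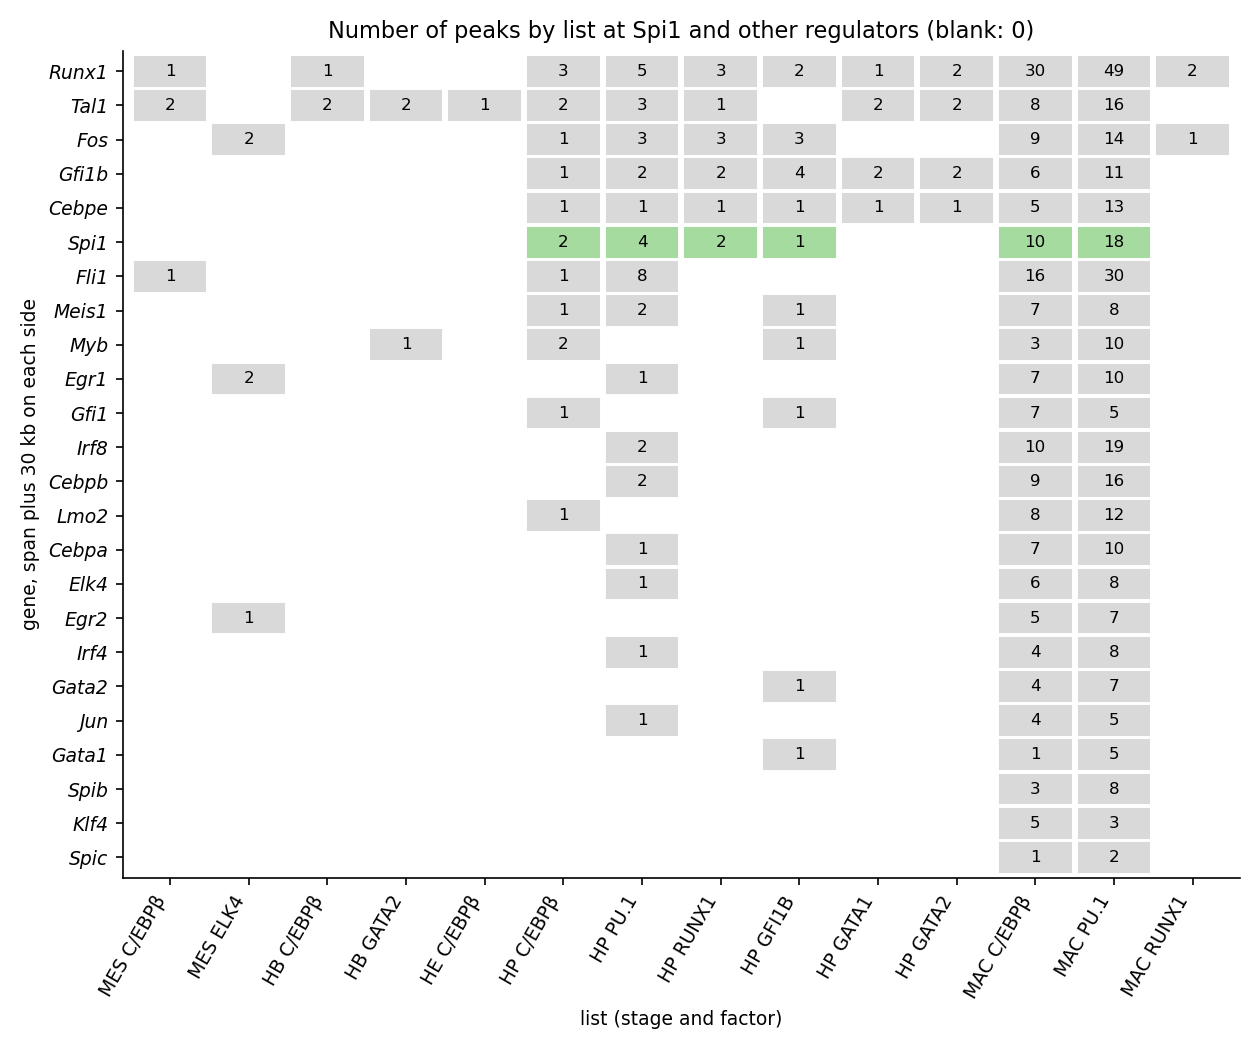
Numbers are deposited peaks in the span plus 30 kb of each gene (rows) in each of the 14 lists (columns), with genes in order of their number of lists, and a blank is 0. Spi1 (green) has 6 lists, all of HP or MAC, while its paralogs Spib and Spic have MAC PU.1 and MAC C/EBPβ peaks alone.

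The exact combination of lists seen at Spi1 was shared by 57 of 21756 coding genes more than 200 kb away. Ranked by the summed difference of log2(peaks + 1) over the 14 lists, the 10 most alike were Ttc9c, Hnrnpul2, Flot1, Oplah, Tubb5, Ptpn1, Arhgap23, B4galt5, Sema4d and Myo1c. Among them Ttc9c and Hnrnpul2, and Flot1 and Tubb5, are neighbours whose windows share peaks. The likeness is over peak numbers in 1 list per group and says nothing of shared function or control.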

How the data were processed

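Binding of 7 TFs was measured by ChIP-seq at 5 stages of differentiation of mouse ES cells, as 14 lists of 1 factor at 1 stage, grouped by the sample labels. The methods of the study state that the authors trimmed reads with CutAdapt, aligned them to mm10 (GRCm38) with Bowtie, kept unique reads, removed duplicates with Picard, and called peaks with MACS against the input of the same stage at a p cutoff chosen by eye at known genes, then refined them with polyPeak. Repeat sequencing runs of some libraries were combined. Tool versions are not given in the sources used here. The authors deposited a start and an end position per peak, all 400 bp wide, with no score. Read depth was not used here, and the number of peaks (72 to 82866 per list) limits what a missing peak can show.

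Positions were compared with RefSeq GRCm38, the build of the lists, in Python 3.11.15 with NumPy 2.4.6, SciPy 1.17.1 (exact binomial intervals, 95%) and Matplotlib 3.10.9. Peaks were merged at an overlap of 1 bp. For each coding gene the span plus 30 kb was counted in the same way, and distances used the start of the lowest-numbered curated transcript. Window counts, the merging of peaks and the word search were tested on simulated data, and the other steps were not. Words were searched exactly on both strands. Named genes were Spi1, the coding genes touching its window, Spib and Spic, a fixed list of 21 further regulators, and the 10 genes most alike by pattern, and Fscn2, Pheta1 and Nr1h3 were named after their values had been seen. The members and lists were chosen with earlier results of these data known. Alternatives varied the flank, the overlap, the TSS, the genes compared and the words. The sequence of 1 stretch is not reported here.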

Additional observations from a re-analysis of the deposited data

How the results depend on the processing

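The 11 results were recomputed under 56 alternatives, of which 32 moved a value by at most 1.5 times and 24 by more. A stricter peak threshold was not run, since the lists hold no score per peak. No paired analysis was possible because every group is 1 list. With a flank of 100 kb the window held 65 peaks in 39 elements from 9 lists in place of 6, the added ones being C/EBPβ in MES and HB and ELK4 in MES, so that peaks were then no longer limited to HP and MAC. At that flank, 10 MAC PU.1 peaks overlapped MAC C/EBPβ, and the share of coding genes at or above Spi1 was 2.33% by lists and 7.8% by MAC PU.1 peaks. With a flank of 10 kb it was 2.74% by lists, and 2 HP PU.1 peaks were left, both in MAC PU.1. Against all RefSeq genes the share by MAC PU.1 peaks was 2.07%. The upstream element, with 1 list by the nearest-element rule, had 5 lists when taken as all peaks 13 to 16 kb upstream. Chosen after the data had been seen, joining peaks across gaps of up to 500 bp or taking the element with the most lists gave 5 as well. Distances from either upstream transcript start gave 2 lists. GAGGAA in place of GAGGAAGT raised the PU.1 peaks with a match from 3 to 11, the ETS core GGAA (added later) to 22, and TTGCNNAA the C/EBPβ peaks from 4 to 7. The number of genes with at least as many MAC PU.1 peaks upstream as Spi1, Spi1 included and all alternatives added later, was 1 at 16 kb, 552 at 5 kb, 45 at 10 kb, 6 at 12 kb, 2 at 20 kb, 15 at 30 kb and 82 at 50 kb. It was 3 from the GENCODE start and 3627 from the upstream exon. Assigning peaks by 1 TSS per gene, also added later, left 5 lists at Spi1 in place of 6.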
